A study of Mus musculus with 12 samples.

Results

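The genes described here make cholesterol and fatty acids or control that synthesis. They are 33 genes taken by name: 18 enzymes of sterol synthesis, 6 regulators and sterol carriers, and 9 genes of fatty acid synthesis. Each was read from the probe sets annotated to its current or former symbol, and where a gene had several, the brightest of them on average was used. Of the 33 genes, 31 had a probe set of their own, and all 31 passed the filter on low values (a mean log2 value of at least 6.0), as did 13180 of the 19937 genes named on the array. No probe set was named for Acat2, a thiolase, and Acsl3, an acyl-CoA synthetase, was found only on a probe set it shares with another gene, so neither was measured. That leaves 17 sterol enzymes, 6 regulators and carriers and 8 fatty acid genes.

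The cells were clone #483, a single clone of T cell acute lymphoblastic leukaemia (T-ALL) cells from C57BL6 mice. They received 100 µM 4EGI-1 for 2 h or served as controls. 4EGI-1 is a small molecule that keeps the cap-binding protein eIF4E from binding the scaffold eIF4G, a step in loading ribosomes onto capped mRNA. The 4 groups of 3 arrays were polysomal RNA of 4EGI-1 cells, polysomal RNA of control cells, cytoplasmic RNA of 4EGI-1 cells and cytoplasmic RNA of control cells. Control samples are labelled untreated, while the protocol text gives them DMSO, the solvent. Polysomal RNA was pooled from the polysome part of sucrose gradients, so it holds mRNA carrying several ribosomes. The other fraction is labelled cytoplasmic but titled total, and it was taken from the same samples.

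Values are RMA log2 values, in which a difference of 1 is a doubling, and a log2 change is given with its standard error after ±. The fit takes 1 spread per gene over all 12 arrays, so a gene has the same error in both fractions. Array medians lay between 6.40 and 6.56, so the arrays were on a similar but not an identical scale. Some calls near the threshold were lost with median centring or quantile normalization, as given below. Each change of a gene is relative to the rest of its array, and a loss of translation in all mRNAs together was not measured. Levels of different genes are not comparable, since their probes differ. The design text speaks of biological replicates but not of how separate the cultures were, so the p-values cover only array-to-array spread, part of which may be technical. The arrays of polysomal RNA varied less: the median standard deviation over all genes was 0.0761 in polysomal 4EGI-1 and 0.0745 in polysomal control arrays, against 0.121 in cytoplasmic 4EGI-1 and 0.133 in cytoplasmic control arrays. Over the 31 measured genes these medians were, in the same order, 0.0552, 0.0621, 0.184 and 0.155. With a shared spread, errors and p-values therefore tend to be too small for cytoplasmic changes and too large for polysomal ones. Of 9 listed T cell markers, 8 had a probe set of their own, and all 8 passed the filter on low values. For B cells 4 of 5 had a probe set and 2 passed, and for myeloid cells 5 of 5 had one and 2 passed. For erythroid cells only 1 of 4 had a probe set, and it passed, with group means of 6.29 to 6.35. For liver cells 3 of 3 had one and 0 passed. These counts describe signal on each probe set and do not measure a share of cells. In bulk RNA, fewer cells with a transcript and less transcript per cell cannot be told apart.

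As background, cholesterol is built from acetyl-CoA by way of mevalonate, farnesyl diphosphate, squalene and lanosterol. The membrane-bound transcription factors SREBP2 (gene Srebf2) and SREBP1 (Srebf1) drive these genes. SREBP2 acts mostly on the sterol enzymes and SREBP1 more on the fatty acid genes. When sterol is scarce, the escort protein SCAP carries SREBPs from the endoplasmic reticulum to the Golgi, where proteases free their active part, and when sterol is plentiful the INSIG proteins hold SCAP back. Dividing leukaemia cells use cholesterol and fatty acids to build membrane.

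With 4EGI-1, most changes in this pathway were decreases, in both RNA fractions. In polysomal RNA 15 of the 31 measured genes fell and 2 rose (adjusted p under 0.05 in limma), while 14 did not pass. Over all genes tested, 12.1% fell and 13% rose in that comparison, 25.2% in all. In cytoplasmic RNA 15 of the 31 fell, 1 rose and 15 did not pass, against 7.79% of all genes lower and 10.1% higher, 17.8% in all. The median log2 change of the 31 genes was -0.26 in polysomal and -0.32 in cytoplasmic RNA, beside -0.03 over all genes tested in each. Both comparisons together found 12 genes lower in both fractions: Hmgcs1, Mvd, Idi1, Sqle, Msmo1, Nsdhl and Sc5d among the sterol enzymes, Srebf2, Scap and Insig1 among the regulators, and Elovl6 and Scd1 among the fatty acid genes. A further 5 passed in polysomal RNA but not in cytoplasmic RNA, 4 passed in cytoplasmic but not in polysomal RNA, and 10 passed in neither. The share of all tested genes that were lower in both fractions was not counted, so the 12 have no background beside them. Without polysomal control array 1, or without polysomal 4EGI-1 array 2, the polysomal count was 10 in place of 17. Calls over all genes fell as well, from 3316 to 2638 and 2719.

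**Figure D1:**
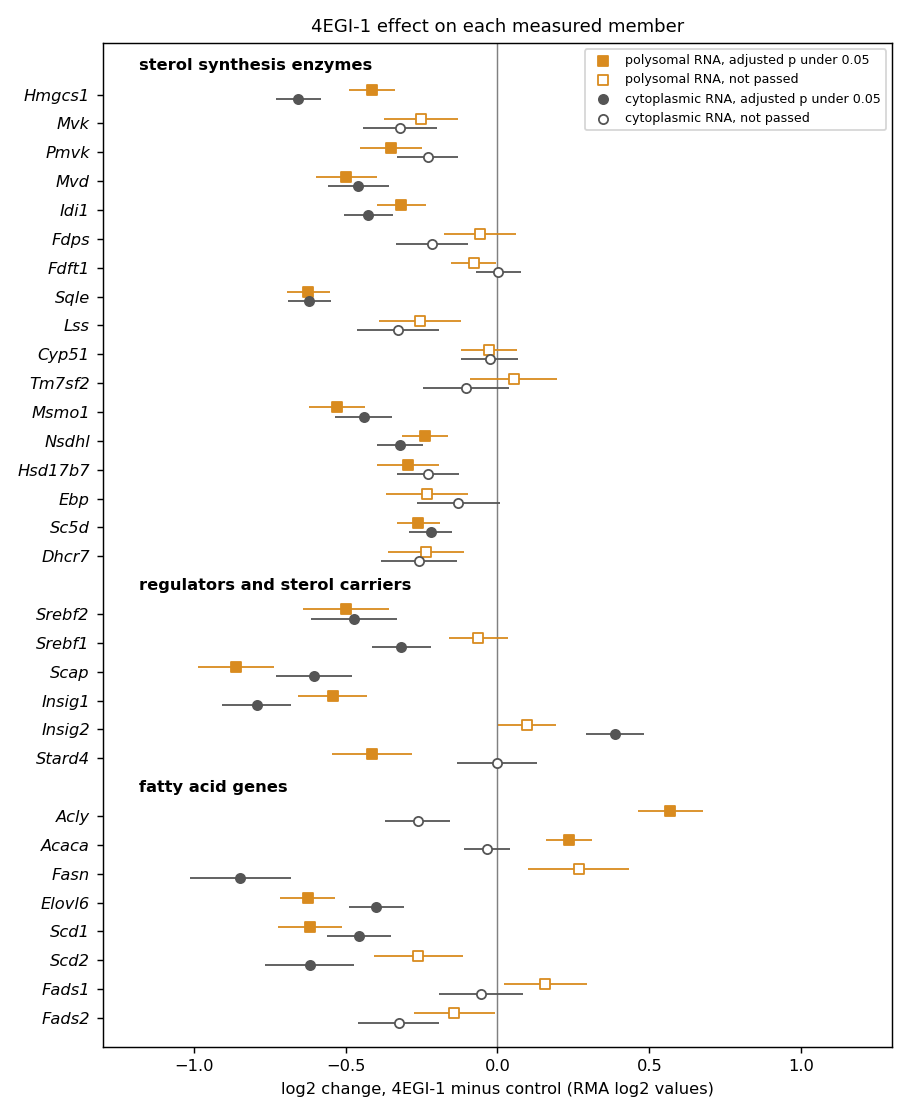
Log2 change with 4EGI-1 (4EGI-1 minus control, RMA log2 values) of the 31 measured genes in polysomal (squares) and cytoplasmic (circles) RNA, with bars of 1 standard error from the fit. Filled symbols have an adjusted p under 0.05. Sterol enzymes lie left of 0 or close to it, while Acly, Acaca and Fasn are right of 0 in polysomal RNA.

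Among the sterol enzymes 9 of 17 fell in polysomal RNA and 7 of 17 in cytoplasmic RNA, and 16 of 17 had a negative change in each. Of all 13180 genes tested, 7622 had a negative change in polysomal and 7383 in cytoplasmic RNA. None of the 17 enzymes rose in limma in either fraction, and none was higher at an unadjusted p under 0.05 in either (0 of 17 each). The median change was -0.26 in polysomal and -0.26 in cytoplasmic RNA. The arrays of the 2 treatments did not overlap for 12 of the 17 enzymes in polysomal RNA, 4EGI-1 lower in each, where 27.1% of all genes did the same. In cytoplasmic RNA this held for 7 of 17, where 12.8% of all genes did so.

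The early steps include HMG-CoA synthase Hmgcs1, which starts the mevalonate pathway. In polysomal RNA it read 10.70, 10.67 and 10.68 on 4EGI-1 arrays, against 11.10, 11.12 and 11.07 on control arrays. In cytoplasmic RNA it read 10.75, 10.71 and 10.76 on 4EGI-1 arrays, against 11.49, 11.43 and 11.27 on control arrays. No 4EGI-1 array reached a control array in either fraction. The log2 change was -0.41 ± 0.07 (adjusted p = 0.000812) in polysomal RNA and -0.66 ± 0.07 (adjusted p = 2.68e-05) in cytoplasmic RNA. Mevalonate diphosphate decarboxylase Mvd, which makes isopentenyl diphosphate, also did not overlap between treatments in either fraction. Its polysomal values were 7.16, 7.19 and 7.30 on 4EGI-1 arrays, against 7.90, 7.58 and 7.67 on control arrays. Its cytoplasmic values were 7.17, 6.88 and 6.93 on 4EGI-1 arrays, against 7.38, 7.43 and 7.54 on control arrays. The log2 change of Mvd was -0.50 ± 0.10 (adjusted p = 0.00182) in polysomal RNA and -0.46 ± 0.10 (adjusted p = 0.00506) in cytoplasmic RNA. For phosphomevalonate kinase Pmvk, the step before Mvd, polysomal arrays read 8.30, 8.28 and 8.36 on 4EGI-1 arrays, against 8.76, 8.66 and 8.58 on control arrays. Its cytoplasmic arrays read 8.15, 8.19 and 8.48 on 4EGI-1 arrays, against 8.37, 8.47 and 8.67 on control arrays, and these overlapped. Pmvk fell in polysomal RNA, -0.35 ± 0.10 (adjusted p = 0.0186), and did not pass in cytoplasmic RNA, -0.23 ± 0.10 (adjusted p = 0.139). The polysomal call of Pmvk was lost without polysomal control array 1 or 2 or polysomal 4EGI-1 array 1 or 2 (adjusted p of up to 0.0849).

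Idi1 encodes the isomerase that makes dimethylallyl diphosphate. Its polysomal values were 11.36, 11.29 and 11.25 on 4EGI-1 arrays, against 11.70, 11.55 and 11.59 on control arrays, and its cytoplasmic values were 11.18, 11.24 and 11.39 on 4EGI-1 arrays, against 11.73, 11.62 and 11.74 on control arrays. The treatments did not overlap in either fraction, and the log2 change was -0.32 ± 0.08 (adjusted p = 0.00865) in polysomal and -0.43 ± 0.08 (adjusted p = 0.00188) in cytoplasmic RNA. The probe set used for Idi1 stands among probe sets of chromosome 2 in the order of the array's identifiers (20 of 20 neighbours), while the gene lies on chromosome 13. A second Idi1 probe set, whose 20 neighbours all lie on chromosome 13, gave -0.41 ± 0.16 (adjusted p = 0.0775) in polysomal and -0.53 ± 0.16 (adjusted p = 0.0308) in cytoplasmic RNA. With that probe set the call in polysomal RNA is lost.

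Squalene epoxidase Sqle, an early oxygen-dependent enzyme of the branch that leads to sterols alone, fell in both fractions. In polysomal RNA it read 10.59, 10.59 and 10.60 on 4EGI-1 arrays, against 11.25, 11.21 and 11.18 on control arrays. In cytoplasmic RNA it read 10.59, 10.57 and 10.49 on 4EGI-1 arrays, against 11.10, 11.17 and 11.24 on control arrays. The treatments stood apart on every array, with a log2 change of -0.62 ± 0.07 (adjusted p = 1.41e-05) in polysomal and -0.62 ± 0.07 (adjusted p = 2.86e-05) in cytoplasmic RNA. The difference between these effects was 0.00 ± 0.10 (adjusted p = 0.996). Methylsterol monooxygenase Msmo1 and sterol dehydrogenase Nsdhl act together to remove methyl groups from lanosterol derivatives. Msmo1 read 10.35, 10.30 and 10.39 on 4EGI-1 arrays, against 11.02, 10.81 and 10.79 on control arrays in polysomal RNA, and 10.36, 10.45 and 10.63 on 4EGI-1 arrays, against 11.03, 10.82 and 10.92 on control arrays in cytoplasmic RNA. Nsdhl read 11.25, 11.20 and 11.25 on 4EGI-1 arrays, against 11.52, 11.43 and 11.47 on control arrays in polysomal RNA, and 11.18, 11.18 and 11.11 on 4EGI-1 arrays, against 11.41, 11.42 and 11.60 on control arrays in cytoplasmic RNA. For both genes the 2 treatments did not overlap in either fraction. The log2 change of Msmo1 was -0.53 ± 0.09 (adjusted p = 0.00065) in polysomal RNA and -0.44 ± 0.09 (adjusted p = 0.00388) in cytoplasmic RNA. That of Nsdhl was -0.24 ± 0.08 (adjusted p = 0.0295) in polysomal RNA and -0.32 ± 0.08 (adjusted p = 0.00817) in cytoplasmic RNA. The polysomal call of Nsdhl was lost without any one of the 6 polysomal arrays (adjusted p of up to 0.104) and with no filter on low values (0.0578), and its cytoplasmic call was lost with the 6 cytoplasmic arrays fitted alone (0.0757).

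The ketosteroid reductase Hsd17b7 is a partner of Msmo1 and Nsdhl in the same demethylation. It read 10.90, 10.71 and 10.86 on 4EGI-1 arrays, against 11.25, 11.10 and 11.01 on control arrays in polysomal RNA, and 10.63, 10.53 and 10.58 on 4EGI-1 arrays, against 10.88, 10.98 and 10.58 on control arrays in cytoplasmic RNA, where 1 control array was as low as 4EGI-1 arrays. It fell in polysomal RNA, -0.30 ± 0.10 (adjusted p = 0.0472), and did not pass in cytoplasmic RNA, -0.23 ± 0.10 (adjusted p = 0.145). The late desaturase Sc5d read 10.24, 10.13 and 10.18 on 4EGI-1 arrays, against 10.49, 10.40 and 10.45 on control arrays in polysomal RNA, and 10.29, 10.27 and 10.37 on 4EGI-1 arrays, against 10.54, 10.49 and 10.55 on control arrays in cytoplasmic RNA. Its 4EGI-1 arrays were lower than every control array in both fractions, with a log2 change of -0.26 ± 0.07 (adjusted p = 0.013) in polysomal RNA and -0.22 ± 0.07 (adjusted p = 0.0439) in cytoplasmic RNA. The cytoplasmic call of Sc5d was lost without any one array other than cytoplasmic control array 2 or cytoplasmic 4EGI-1 array 3 (adjusted p of up to 0.129), with the 6 cytoplasmic arrays fitted alone (0.183), with no filter (0.0832) and with arrays centred on their medians (0.0547). Its polysomal call was lost without polysomal control array 1 or polysomal 4EGI-1 array 2 (up to 0.0593). The polysomal call of Hsd17b7 was kept only without polysomal control array 3, cytoplasmic 4EGI-1 array 3 or cytoplasmic control array 2 or 3, and lost without any one of the other 8 (adjusted p of up to 0.193). It was also lost with no filter (0.083), quantile normalization (0.0538) and median centring (0.0777).

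The remaining sterol enzymes passed in neither fraction. They were mevalonate kinase Mvk, farnesyl diphosphate synthase Fdps, squalene synthase Fdft1, lanosterol synthase Lss, lanosterol demethylase Cyp51, sterol reductases Tm7sf2 and Dhcr7, and sterol isomerase Ebp. Their changes lay between -0.26 (adjusted p = 0.194, Lss) and 0.05 (adjusted p = 0.843, Tm7sf2) in polysomal RNA. In cytoplasmic RNA they lay between -0.33 (adjusted p = 0.108, Lss) and 0.00 (adjusted p = 0.985, Fdft1). Mvk, Lss and Dhcr7 passed as lower in polysomal RNA with the 6 polysomal arrays fitted alone or with array weights (adjusted p down to 0.00856 in limma). These genes also passed as lower in cytoplasmic RNA with array weights or without cytoplasmic 4EGI-1 array 3 (down to 6.78e-05). Fdft1 has a second probe set on the same chromosome, with -0.14 ± 0.08 (adjusted p = 0.218) in polysomal and -0.22 ± 0.08 (adjusted p = 0.0645) in cytoplasmic RNA.

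The promoter windows of 4 of the genes are shown as examples, searched for letters that SREBPs and a partner factor are known to use. Each is the 250 bases before the gene start, RefSeq, build GRCm38.p6, in the direction of the gene, with matches in capitals. The letters searched were TCACNCCAC, a form of the sterol regulatory element bound by SREBPs, and CCAAT, bound by the factor NF-Y that SREBPs work with, on both strands, so CCAAT also appears as ATTGG. Of these windows only that of Hmgcs1 holds TCACNCCAC, while those of Msmo1, Insig1 and Fasn hold CCAAT alone. In the Fasn window CCAAT and ATTGG overlap.
Hmgcs1, chr13:119690101-119690350, plus strand: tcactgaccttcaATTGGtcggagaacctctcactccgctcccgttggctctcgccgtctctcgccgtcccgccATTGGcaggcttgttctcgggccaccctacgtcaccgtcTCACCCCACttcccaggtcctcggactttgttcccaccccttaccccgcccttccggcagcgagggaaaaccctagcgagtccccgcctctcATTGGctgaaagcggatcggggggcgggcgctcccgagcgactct
Msmo1, chr8:64733579-64733828, minus strand: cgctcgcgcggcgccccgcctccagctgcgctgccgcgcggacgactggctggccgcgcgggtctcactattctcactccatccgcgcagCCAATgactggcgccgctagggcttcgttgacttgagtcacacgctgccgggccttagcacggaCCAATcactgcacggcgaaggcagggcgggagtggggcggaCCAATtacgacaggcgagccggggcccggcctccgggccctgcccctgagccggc
Insig1, chr5:28071162-28071411, plus strand: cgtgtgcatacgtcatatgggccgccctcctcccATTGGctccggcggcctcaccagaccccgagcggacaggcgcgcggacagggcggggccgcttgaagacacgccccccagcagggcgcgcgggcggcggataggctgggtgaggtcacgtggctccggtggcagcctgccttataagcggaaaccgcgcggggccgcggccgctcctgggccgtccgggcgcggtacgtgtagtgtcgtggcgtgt
Fasn, chr11:120824548-120824797, minus strand: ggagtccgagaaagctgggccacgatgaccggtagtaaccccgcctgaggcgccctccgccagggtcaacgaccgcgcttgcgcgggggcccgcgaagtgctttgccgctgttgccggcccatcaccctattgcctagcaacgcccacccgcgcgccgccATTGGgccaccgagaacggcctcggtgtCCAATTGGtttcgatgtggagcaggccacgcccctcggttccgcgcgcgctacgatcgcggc

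In windows of 250 bases before to 50 bases after the start, CCAAT was found for 20 of the 24 measured genes with a window (83.3%), as 14 of 14 sterol enzymes, 4 of 5 regulators and carriers and 2 of 5 fatty acid genes. Over all tested genes with a window it was found for 4397 of 10491 (41.9%). TCACNCCAC was found for 1 of the 24, Hmgcs1, and for 153 of 10491 (1.46%) tested genes. A match of letters is a description of the window.

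Of the 6 regulators and carriers, 4 fell and none rose in polysomal RNA in limma (0 at an unadjusted p under 0.05 either), and in cytoplasmic RNA 4 fell and Insig2 rose. Insig2 was also the only one of the 31 genes whose 4EGI-1 arrays all lay above the control arrays in cytoplasmic RNA, as 13.8% of all genes did. Srebf2 encodes SREBP2. Its polysomal values were 9.84, 9.73 and 9.78 on 4EGI-1 arrays, against 10.33, 10.28 and 10.23 on control arrays. Its cytoplasmic values were 9.89, 9.83 and 10.33 on 4EGI-1 arrays, against 10.56, 10.15 and 10.75 on control arrays, which overlapped between treatments, since control array 2 was low and 4EGI-1 array 3 high. The log2 change was -0.50 ± 0.14 (adjusted p = 0.0164) in polysomal RNA and -0.47 ± 0.14 (adjusted p = 0.0302) in cytoplasmic RNA. Leaving out cytoplasmic control array 1 or 3, or 4EGI-1 array 1 or 2, ended the cytoplasmic call, with adjusted p-values of up to 0.132, as did fitting the 6 cytoplasmic arrays alone (0.136) or no filter (0.0535). Its polysomal call was lost without polysomal control array 1 or polysomal 4EGI-1 array 2 (up to 0.0593). Scap encodes the escort of the SREBPs. It read 9.21, 9.13 and 9.12 on 4EGI-1 arrays, against 9.99, 10.08 and 9.96 on control arrays in polysomal RNA and 9.61, 9.46 and 9.83 on 4EGI-1 arrays, against 10.22, 9.96 and 10.54 on control arrays in cytoplasmic RNA. No treated array reached a control array in either fraction. Its log2 change of -0.86 ± 0.12 (adjusted p = 0.000131) in polysomal RNA, a 1.82-fold decrease, was the strongest of the 31 genes there. In cytoplasmic RNA it was -0.60 ± 0.12 (adjusted p = 0.00338).

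Insig1, the INSIG gene that is itself an SREBP target and holds SCAP back, read 10.79, 10.77 and 10.85 on 4EGI-1 arrays, against 11.25, 11.41 and 11.37 on control arrays in polysomal RNA. In cytoplasmic RNA it read 11.26, 11.19 and 11.56 on 4EGI-1 arrays, against 12.19, 11.89 and 12.31 on control arrays. Both fractions were lower on every 4EGI-1 array, with log2 changes of -0.54 ± 0.11 (adjusted p = 0.00235) in polysomal RNA and -0.79 ± 0.11 (adjusted p = 0.000206) in cytoplasmic RNA. Insig2, its relative, went the other way in cytoplasmic RNA. It read 8.90, 8.73 and 8.72 on 4EGI-1 arrays, against 8.62, 8.76 and 8.68 on control arrays in polysomal RNA, where treatments overlapped, and 9.23, 9.11 and 8.89 on 4EGI-1 arrays, against 8.58, 8.80 and 8.69 on control arrays in cytoplasmic RNA, where every 4EGI-1 array was higher. The log2 change was 0.10 ± 0.10 (adjusted p = 0.534) in polysomal RNA and 0.39 ± 0.10 (adjusted p = 0.0117) in cytoplasmic RNA, where the call was lost without control array 1 or without 4EGI-1 array 1 (adjusted p of up to 0.0679) or with the 6 cytoplasmic arrays fitted alone (0.0702).

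Srebf1, which encodes SREBP1, read 7.82, 7.67 and 7.92 on 4EGI-1 arrays, against 7.83, 7.92 and 7.86 on control arrays in polysomal RNA, with overlap. It read 8.02, 7.84 and 8.08 on 4EGI-1 arrays, against 8.33, 8.13 and 8.42 on control arrays in cytoplasmic RNA, where each 4EGI-1 array was below each control array. Srebf1 fell in cytoplasmic RNA, -0.32 ± 0.10 (adjusted p = 0.0333), and in polysomal RNA its change was -0.06 ± 0.10 (adjusted p = 0.711). Without cytoplasmic control array 1 or 3, or 4EGI-1 array 1 or 2, the cytoplasmic call was lost (adjusted p of up to 0.138), as it was with the 6 cytoplasmic arrays fitted alone (0.127) or no filter (0.0612). Stard4, a soluble carrier of sterol between membranes, read 9.82, 9.63 and 9.82 on 4EGI-1 arrays, against 10.23, 10.15 and 10.13 on control arrays in polysomal RNA and 9.74, 9.73 and 9.66 on 4EGI-1 arrays, against 9.85, 9.99 and 9.30 on control arrays in cytoplasmic RNA. The polysomal arrays did not overlap and the cytoplasmic ones did, with 1 control array the lowest of all. The log2 change of Stard4 was -0.41 ± 0.13 (adjusted p = 0.0316) in polysomal RNA and 0.00 ± 0.13 (adjusted p = 0.997) in cytoplasmic RNA. The polysomal call was lost without any one of the 6 polysomal arrays (adjusted p of up to 0.123), with no filter (0.056), with quantile normalization (0.0551) and with median centring (0.0615).

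**Figure D2:**
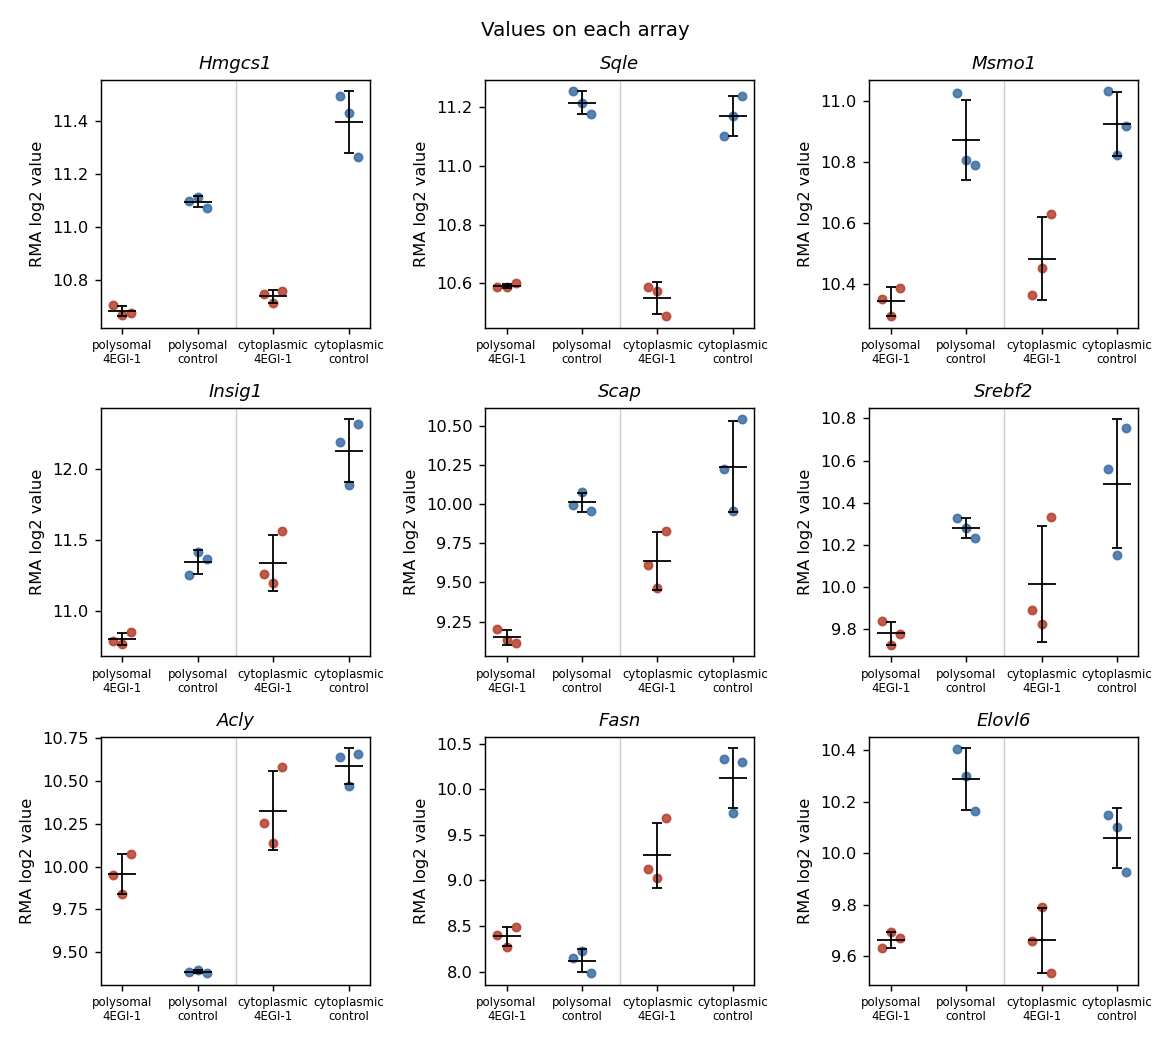
RMA log2 value on each of the 12 arrays for 9 genes, by group, with the mean and standard deviation of 3 arrays. Each panel has its own axis, which does not start at 0. Sqle is near 10.6 on all 4EGI-1 arrays and near 11.2 on all control arrays, while Fasn is far lower in polysomal than in cytoplasmic RNA in both treatments.

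The fatty acid genes had mixed directions in polysomal RNA and negative changes in cytoplasmic RNA. The cytoplasmic changes of Acaca and Fads1 were close to 0 and turned positive under some alternatives (up to 0.01 and 0.06). In cytoplasmic RNA 4 of 8 fell, none rose in limma (0 at an unadjusted p under 0.05), and all 8 had a negative change (as did 7383 of all 13180 genes tested), with a median of -0.36. In polysomal RNA 2 fell (Elovl6 and Scd1), 2 rose (Acly and Acaca) and 4 did not pass, with a median of 0.01. The polysomal arrays of the 2 treatments did not overlap for any of the 8, with 4EGI-1 lower for 4 and higher for 4, where 27.1% of all genes were lower and 21.6% higher in this way. Acly splits citrate to give the acetyl-CoA for both pathways. It read 9.95, 9.84 and 10.07 on 4EGI-1 arrays, against 9.38, 9.40 and 9.38 on control arrays in polysomal RNA and 10.26, 10.14 and 10.58 on 4EGI-1 arrays, against 10.64, 10.47 and 10.66 on control arrays in cytoplasmic RNA. In polysomal RNA every 4EGI-1 array was above every control array, and in cytoplasmic RNA the arrays overlapped. The log2 change was 0.57 ± 0.11 (adjusted p = 0.001) in polysomal RNA, a 1.48-fold increase, and -0.26 ± 0.11 (adjusted p = 0.104) in cytoplasmic RNA. This cytoplasmic change passed, as lower, in 3 of 23 alternatives (adjusted p down to 0.0012 in limma).

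Acaca makes malonyl-CoA, the building unit of fatty acids. It read 11.09, 11.00 and 10.94 on 4EGI-1 arrays, against 10.79, 10.76 and 10.77 on control arrays in polysomal RNA and 11.24, 11.17 and 11.24 on 4EGI-1 arrays, against 11.34, 11.26 and 11.15 on control arrays in cytoplasmic RNA. It rose in polysomal RNA, 0.24 ± 0.08 (adjusted p = 0.0308), and its cytoplasmic change was -0.03 ± 0.08 (adjusted p = 0.799). The probe set used for Acaca stands among probe sets of chromosome 12 (18 of 20 neighbours), while the gene lies on chromosome 11. Its second probe set, with 19 of 20 neighbours on chromosome 11, gave 0.21 ± 0.09 (adjusted p = 0.104) in polysomal RNA, which did not pass, and -0.06 ± 0.09 (adjusted p = 0.723) in cytoplasmic RNA. With the first probe set the polysomal call was lost without any one polysomal array other than 4EGI-1 array 3 (adjusted p of up to 0.132) and with no filter (0.06). Fasn, the synthase that makes palmitate, read 8.40, 8.27 and 8.48 on 4EGI-1 arrays, against 8.15, 8.22 and 7.98 on control arrays in polysomal RNA. In cytoplasmic RNA it read 9.12, 9.02 and 9.68 on 4EGI-1 arrays, against 10.33, 9.74 and 10.29 on control arrays. The 4EGI-1 arrays were all higher in polysomal RNA and all lower in cytoplasmic RNA. Fasn fell in cytoplasmic RNA, -0.85 ± 0.17 (adjusted p = 0.00246), 1.80-fold, and its polysomal change of 0.27 ± 0.17 (adjusted p = 0.283) did not pass. That polysomal change did pass, as higher, with the 6 polysomal arrays fitted alone or with array weights (adjusted p down to 0.0197 in limma).

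Elovl6, which lengthens palmitate, and Scd1, which puts a double bond into saturated fatty acids, fell in both fractions. Elovl6 read 9.63, 9.69 and 9.67 on 4EGI-1 arrays, against 10.40, 10.30 and 10.16 on control arrays in polysomal RNA and 9.66, 9.79 and 9.53 on 4EGI-1 arrays, against 10.15, 10.10 and 9.93 on control arrays in cytoplasmic RNA. Scd1 read 11.00, 10.99 and 10.90 on 4EGI-1 arrays, against 11.53, 11.59 and 11.62 on control arrays in polysomal RNA and 11.00, 11.05 and 11.40 on 4EGI-1 arrays, against 11.70, 11.43 and 11.70 on control arrays in cytoplasmic RNA. For both, no 4EGI-1 array reached a control array in either fraction. The change of Elovl6 was -0.62 ± 0.09 (adjusted p = 0.000135) in polysomal RNA and -0.40 ± 0.09 (adjusted p = 0.00662) in cytoplasmic RNA, and that of Scd1 was -0.62 ± 0.11 (adjusted p = 0.000535) in polysomal RNA and -0.46 ± 0.11 (adjusted p = 0.0072) in cytoplasmic RNA. Scd2, a second such desaturase, read 10.71, 10.62 and 10.70 on 4EGI-1 arrays, against 10.95, 10.91 and 10.96 on control arrays in polysomal RNA and 10.84, 10.79 and 11.36 on 4EGI-1 arrays, against 11.67, 11.29 and 11.88 on control arrays in cytoplasmic RNA, where the treatments overlapped by 1 array. It fell in cytoplasmic RNA, -0.62 ± 0.15 (adjusted p = 0.00852), and its polysomal change was -0.26 ± 0.15 (adjusted p = 0.231). The polysomal change of Scd2 passed, as lower, with the 6 polysomal arrays fitted alone or with array weights (adjusted p down to 0.00496 in limma). With the 6 cytoplasmic arrays fitted alone, the cytoplasmic calls of Scd1 (adjusted p = 0.0627) and Scd2 (adjusted p = 0.0679) were lost. Fads1 and Fads2, desaturases of polyunsaturated fatty acids, passed in neither fraction, with changes of 0.16 ± 0.14 (adjusted p = 0.468) and -0.14 ± 0.13 (adjusted p = 0.508) in polysomal RNA and -0.05 ± 0.14 (adjusted p = 0.83) and -0.32 ± 0.13 (adjusted p = 0.111) in cytoplasmic RNA. The cytoplasmic change of Fads2 passed, as lower, in 4 of 23 alternatives (adjusted p down to 0.000688 in limma).

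The difference of the 4EGI-1 effects, polysomal minus cytoplasmic, asks whether the mRNA on polysomes changed otherwise than the mRNA in the cell. Of the 31 genes, 2 passed, both higher and both fatty acid genes, where 2.31% of all genes were higher and 0.607% lower, 2.92% in all. Fasn had a difference of 1.11 ± 0.24 (adjusted p = 0.0173) and Acly of 0.83 ± 0.15 (adjusted p = 0.00583). Among the sterol enzymes 0 of 17 passed in limma, 1 at an unadjusted p under 0.05, with differences between -0.12 and 0.24. Among the regulators 0 of 6 passed, 1 at an unadjusted p under 0.05, with differences between -0.41 (Stard4, adjusted p = 0.346) and 0.25 (Srebf1, adjusted p = 0.454). Acly kept its call whichever single array was left out. Fasn lost it without cytoplasmic control array 1, cytoplasmic 4EGI-1 array 1, polysomal control array 3 or polysomal 4EGI-1 array 1 or 3, with adjusted p-values of up to 0.0638, and the count was then 1. Calls over all genes fell in these fits from 385 to between 200 and 274.

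**Figure D3:**
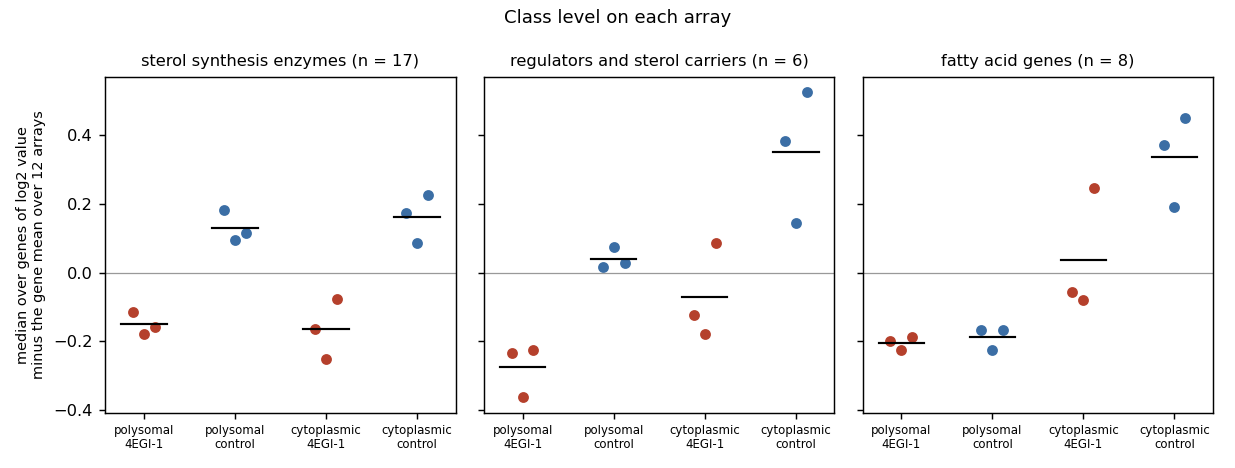
Level of each class on each array, as the median over its genes of the log2 value minus the gene's mean over the 12 arrays, with horizontal lines at the group mean. Sterol enzymes separate by treatment in both fractions, and fatty acid genes separate by fraction.

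The level of a class on an array, taken as the median over its genes of the log2 value less the gene's own mean, shows the classes side by side. For the sterol enzymes it was -0.11, -0.18 and -0.16 on polysomal 4EGI-1 arrays, against 0.18, 0.10 and 0.12 on polysomal control arrays. On cytoplasmic arrays it was -0.16, -0.25 and -0.08 with 4EGI-1, against 0.17, 0.08 and 0.23 in controls. All 4EGI-1 arrays were negative and all control arrays positive. For the fatty acid genes it was -0.20, -0.23 and -0.19 on polysomal 4EGI-1 arrays, against -0.17, -0.23 and -0.17 on polysomal control arrays. On cytoplasmic arrays it was -0.06, -0.08 and 0.24 with 4EGI-1, against 0.37, 0.19 and 0.45 in controls. Polysomal arrays of both treatments thus overlapped, and cytoplasmic 4EGI-1 array 3 was above control array 2. For the regulators and carriers it was -0.23, -0.36 and -0.23 on polysomal 4EGI-1 arrays, against 0.02, 0.07 and 0.03 on polysomal control arrays. Cytoplasmic 4EGI-1 arrays gave -0.12, -0.18 and 0.09, against 0.38, 0.14 and 0.52 on control arrays. In all 3 classes cytoplasmic 4EGI-1 array 3 was the highest of its group and cytoplasmic control array 2 the lowest. Without the first of these the cytoplasmic count was 22 of 31 and without the second 18, in place of 16. Calls over all 13180 genes rose as well, from 2352 to 3093 and 3088. The difference between classes was not tested.

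Polysomal RNA was also set against cytoplasmic RNA within each treatment. In 4EGI-1 cells 5 of the 31 genes were lower in polysomal RNA and 1 was higher, where 7.15% of all genes were lower and 9.56% higher, 16.7% in all. In control cells 8 were lower and 3 higher, where 12.2% were lower and 16.7% higher, 29% in all. Both comparisons and the difference of effects rest on the same arrays, so their values are given side by side. Fasn was -0.89 ± 0.17 (adjusted p = 0.00287) in 4EGI-1 cells and -2.00 ± 0.17 (adjusted p = 9.76e-07) in control cells, a 4.01-fold lower value in polysomal RNA of controls. Acly was -0.37 ± 0.11 (adjusted p = 0.0268) in 4EGI-1 cells and -1.20 ± 0.11 (adjusted p = 1.69e-06) in control cells. Insig1 was also lower in both, -0.54 ± 0.11 (adjusted p = 0.00581) in 4EGI-1 cells and -0.79 ± 0.11 (adjusted p = 0.000129) in control cells. Scap, -0.49 ± 0.12 (adjusted p = 0.0165), and Insig2, -0.29 ± 0.10 (adjusted p = 0.0492), passed in 4EGI-1 cells, and neither passed in control cells. Control values were -0.23 ± 0.12 (adjusted p = 0.193) for Scap and -0.005 ± 0.10 (adjusted p = 0.976) for Insig2. The difference of effects passed for neither in limma. It was -0.26 ± 0.18 (adjusted p = 0.599) for Scap and -0.29 ± 0.14 (adjusted p = 0.373) for Insig2.

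In control cells the other lower genes were Hmgcs1, -0.30 ± 0.07 (adjusted p = 0.00688), Srebf1, -0.43 ± 0.10 (adjusted p = 0.0037), Acaca, -0.48 ± 0.08 (adjusted p = 0.000271), Scd2, -0.68 ± 0.15 (adjusted p = 0.00277), and Fads1, -0.46 ± 0.14 (adjusted p = 0.0188). The higher ones in control cells were Cyp51, 0.30 ± 0.09 (adjusted p = 0.0221), Hsd17b7, 0.31 ± 0.10 (adjusted p = 0.0352), and Stard4, 0.46 ± 0.13 (adjusted p = 0.0164). Cyp51 was higher in 4EGI-1 cells too, 0.30 ± 0.09 (adjusted p = 0.037). With quantile normalization none of these higher calls held: adjusted p in control cells was 0.0816 for Cyp51, 0.0888 for Hsd17b7 and 0.06 for Stard4, and in 4EGI-1 cells 0.0825 for Cyp51. Hsd17b7 in control cells was also lost with median centring (0.0505), no filter (0.065) or the 6 control arrays alone (0.0699), and Cyp51 with those 6 arrays (0.0537). Cyp51 in 4EGI-1 cells was lost with median centring (0.0898) or no filter (0.0672). By class, 5 of 8 fatty acid genes were lower in polysomal RNA of control cells, against 1 of 17 sterol enzymes and 2 of 6 regulators. The median was -0.47 for fatty acid genes and 0.00 for sterol enzymes, beside -0.02 over all genes. Among sterol enzymes in control cells, Tm7sf2, -0.38 ± 0.14 (adjusted p = 0.0562), passed as lower in 10 of 23 alternatives. Mvd, 0.26 ± 0.10 (adjusted p = 0.0621), passed as higher in 8 of 23. In 4EGI-1 cells Acaca did not pass, -0.21 ± 0.08 (adjusted p = 0.077), but its second probe set passed as lower, -0.30 ± 0.09 (adjusted p = 0.0323). In 4EGI-1 cells the call of Acly was lost without cytoplasmic 4EGI-1 array 3 or polysomal 4EGI-1 array 1 or 2 (adjusted p of up to 0.105), and that of Scap without cytoplasmic or polysomal 4EGI-1 array 3 (up to 0.0595). Cyp51 lost its call there without cytoplasmic 4EGI-1 array 1 or 3, polysomal control array 3 or any polysomal 4EGI-1 array (up to 0.123). Insig2 lost its call there without any one polysomal array or cytoplasmic 4EGI-1 array 1 or 2 (up to 0.184), and with the 6 arrays of 4EGI-1 cells alone (0.0775), no filter (0.0856), median centring (0.0749) or a variance trend. The call of Acly was also lost with those 6 arrays alone (0.0584). In control cells calls were lost for Cyp51 without cytoplasmic control array 3 or polysomal control array 1 or 3 (up to 0.0947), and for Stard4 without polysomal control array 1 (0.0649). Without cytoplasmic control array 1 or 3, Fads1 (up to 0.0911) and Hsd17b7 (up to 0.157) lost theirs, as did Fads1 without polysomal control array 2 and Hsd17b7 without polysomal control array 1 or 2. In 4EGI-1 cells the count of 6 became 3 without cytoplasmic 4EGI-1 array 3 or without any one of the polysomal 4EGI-1 arrays. Calls over all genes fell there too, from 2202 to between 1046 and 1852.

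**Figure D4:**
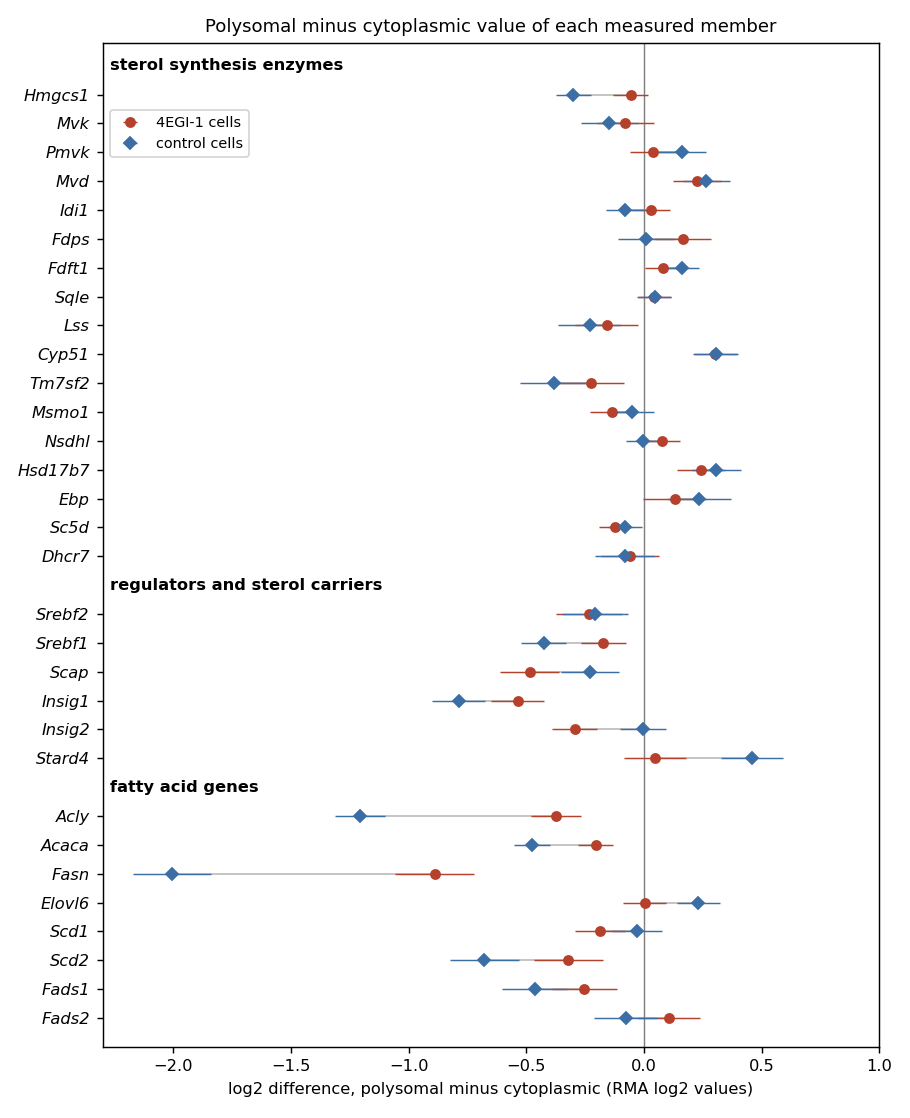
Polysomal minus cytoplasmic log2 value of the 31 genes in 4EGI-1 cells (circles) and control cells (diamonds), with bars of 1 standard error. Acly and Fasn are the genes whose 2 symbols lie farthest apart.

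Neighbouring pathways were read from lists of 73 tested genes. In polysomal RNA 10 of them rose and 11 fell, in cytoplasmic RNA 5 rose and 9 fell, and in the difference of effects 5 were higher and 0 lower in limma, 2 at an unadjusted p under 0.05. Over all genes tested, 13% rose and 12.1% fell in polysomal RNA, and 10.1% rose and 7.79% fell in cytoplasmic RNA. In the difference 2.31% were higher and 0.607% lower. The polysomal counts were near these shares, and the counts of each list below should be read beside them. In the isoprenoid branch 1 of 13 rose and 1 fell in each fraction. The one that fell was Fnta, the subunit shared by the farnesyl and geranylgeranyl transferases, with -0.93 ± 0.09 (adjusted p = 3.27e-06) in polysomal and -0.75 ± 0.09 (adjusted p = 4.36e-05) in cytoplasmic RNA. The one that rose was Pggt1b, its partner in adding geranylgeranyl groups, with 0.35 ± 0.11 (adjusted p = 0.0345) in polysomal and 0.39 ± 0.11 (adjusted p = 0.0281) in cytoplasmic RNA.

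Of 9 genes for the processing and turnover of SREBP pathway proteins, 3 rose and 1 fell in polysomal RNA, and 1 rose and 2 fell in cytoplasmic RNA. Mbtps1, the Golgi protease that makes the first cut in SREBPs, fell, -0.46 ± 0.11 (adjusted p = 0.00532) in polysomal and -0.41 ± 0.11 (adjusted p = 0.0166) in cytoplasmic RNA. Vcp, the ATPase that pulls ubiquitinated proteins from the endoplasmic reticulum, rose in polysomal RNA, 0.67 ± 0.10 (adjusted p = 0.000197), and changed by -0.13 ± 0.10 (adjusted p = 0.414) in cytoplasmic RNA, with a difference of 0.81 ± 0.14 (adjusted p = 0.0057). Its cofactor Ufd1 rose in cytoplasmic RNA, 0.43 ± 0.08 (adjusted p = 0.00217), with 0.22 ± 0.08 (adjusted p = 0.0676) in polysomal RNA.

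Of 6 LXR-related genes, which act when sterol is abundant, 1 rose and 1 fell in polysomal RNA, and 1 rose and 3 fell in cytoplasmic RNA. The cholesterol exporter Abcg1 fell in both, -0.44 ± 0.08 (adjusted p = 0.00103) in polysomal and -0.48 ± 0.08 (adjusted p = 0.000837) in cytoplasmic RNA, and Nr1h3, which encodes LXR alpha, rose in both, 0.33 ± 0.09 (adjusted p = 0.015) in polysomal and 0.32 ± 0.09 (adjusted p = 0.0231) in cytoplasmic RNA. The LXR-induced ubiquitin ligase Mylip fell in cytoplasmic RNA, -0.40 ± 0.10 (adjusted p = 0.0104), with -0.10 ± 0.10 (adjusted p = 0.509) in polysomal RNA. Of 12 genes of sterol uptake and trafficking, 1 rose and 3 fell in polysomal RNA and 1 fell in cytoplasmic RNA. Npc1, which moves cholesterol out of lysosomes, rose in polysomal RNA, 0.59 ± 0.09 (adjusted p = 0.000283), with 0.05 ± 0.09 (adjusted p = 0.758) in cytoplasmic RNA and a difference of 0.54 ± 0.13 (adjusted p = 0.0402). Tmem97, a sterol-responsive membrane protein, fell in both, -0.61 ± 0.15 (adjusted p = 0.00633) in polysomal and -0.55 ± 0.15 (adjusted p = 0.0174) in cytoplasmic RNA. Erg28, known from yeast as a scaffold for sterol enzymes, fell in polysomal RNA, -0.46 ± 0.10 (adjusted p = 0.00231), with -0.12 ± 0.10 (adjusted p = 0.42) in cytoplasmic RNA.

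Of 18 other genes of fatty acid synthesis and lipid assembly, 2 rose and 4 fell in polysomal RNA, and 2 rose and 1 fell in cytoplasmic RNA. The mitochondrial ketoacyl synthase Oxsm rose in both, 0.63 ± 0.13 (adjusted p = 0.0021) in polysomal and 0.66 ± 0.13 (adjusted p = 0.00253) in cytoplasmic RNA. The acyl-CoA synthetase Acsl5 fell in polysomal RNA, -0.31 ± 0.07 (adjusted p = 0.00399), with -0.12 ± 0.07 (adjusted p = 0.269) in cytoplasmic RNA. The phosphatidate phosphatase Lpin1 had 0.00 ± 0.10 (adjusted p = 0.998) in polysomal RNA and fell in cytoplasmic RNA, -0.58 ± 0.10 (adjusted p = 0.001), with a difference of 0.58 ± 0.14 (adjusted p = 0.0402). Of 15 genes of fatty acid oxidation, 2 rose and 1 fell in polysomal RNA and 1 fell in cytoplasmic RNA. Cpt1a, which gates the entry of fatty acids into mitochondria, rose in polysomal RNA, 0.65 ± 0.10 (adjusted p = 0.000236), with -0.07 ± 0.10 (adjusted p = 0.683) in cytoplasmic RNA and a difference of 0.72 ± 0.14 (adjusted p = 0.0114). Hadha, of the trifunctional protein, rose in polysomal RNA, 0.48 ± 0.08 (adjusted p = 0.000552), with -0.06 ± 0.08 (adjusted p = 0.685) in cytoplasmic RNA and a difference of 0.54 ± 0.12 (adjusted p = 0.0204). The dehydrogenase Acadm fell in both, -0.39 ± 0.07 (adjusted p = 0.000978) in polysomal and -0.51 ± 0.07 (adjusted p = 0.000164) in cytoplasmic RNA.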

How the data were processed

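RNA was profiled on single-colour arrays in 12 samples, 3 in each of 4 groups. The authors deposited 1 table of log2 values for 34760 probe sets, made with RMA per the submitters' processing notes, with a version not given in the sources used here. By the platform annotation 21640 probe sets had 1 gene symbol, 1321 several and 11799 none, and 19918 of 19937 symbols are in the RefSeq gene table of GRCm38.p6. Genes whose mean fell under the 40th percentile of probe sets were left out. Group means over all 12 arrays were fitted with limma 3.58.1 in R 4.3.3 (lmFit, eBayes without trend) for 13180 genes, giving 5 comparisons, with p-values adjusted by Benjamini-Hochberg over these genes and a threshold of 0.05. Errors of log2 changes are standard errors from this fit, with 1 spread per gene shared by the 4 groups. The number of arrays limits the precision. The probe set named for a gene was checked against its neighbours in identifier order: for 97.2% of named probe sets these lie mostly on the gene's chromosome.

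The members and lists were chosen with earlier results of these data known, so no test is made over a list. Array values are given for genes that passed in a treatment comparison, and up to 3 genes with the smallest p are named from each neighbouring list. The script was tested on simulated data. Alternatives covered the arrays fitted, a replicate block, the filter, normalization, array weights, the variance trend, the probe set and each array left out.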

Additional observations from a re-analysis of the deposited data

Results flagged for a closer look

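For Acly and Fasn the 4EGI-1 effect differed between the RNA fractions by the interaction term of the fit over all genes in limma. The difference, polysomal minus cytoplasmic, was 0.83 for Acly (adjusted p = 0.00583) and 1.11 for Fasn (adjusted p = 0.0173). On polysomal arrays Acly was higher with 4EGI-1 on 3 of 3 arrays. Fasn was higher on 3 of 3 polysomal 4EGI-1 arrays and lower on 3 of 3 cytoplasmic 4EGI-1 arrays.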

How the results depend on the processing

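In place of the 17 polysomal, 16 cytoplasmic and 2 interaction calls, and of 6 calls between fractions in 4EGI-1 cells and 11 in control cells, leaving out single arrays gave 10 to 18, 12 to 22, 1 to 2, 3 to 7 and 8 to 14. The 6 cytoplasmic arrays fitted alone gave 9 calls, where calls over all 13180 genes went from 2352 to 1100. The 6 polysomal arrays fitted alone gave 22 calls, where calls over all genes went from 3316 to 5031. Array weights gave 8 for the interaction, 11 for polysomal against cytoplasmic RNA in 4EGI-1 cells and 18 in control cells. Calls over all genes rose with these weights too, to 2838, 4672 and 6054 in place of 385, 2202 and 3819. So these moves were not particular to the 31 genes. All other alternatives kept the counts of the 31 genes within 1.5 times. No called change reversed its sign under any alternative run. Under all 23 alternatives 9 of 17 polysomal calls (Hmgcs1, Mvd, Sqle, Msmo1, Scap, Insig1, Acly, Elovl6 and Scd1) and 9 of 16 cytoplasmic calls (Hmgcs1, Mvd, Idi1, Sqle, Msmo1, Scap, Insig1, Fasn and Elovl6) were kept, and 1 of 2 interaction calls (Acly) under 21. The cause of the moved counts was not tested. A fit of 6 arrays with a block and the probe set near the gene were chosen after seeing the data.

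With the replicate number as a block the counts were 17 polysomal, 18 cytoplasmic, 2 interaction, 6 between fractions in 4EGI-1 cells and 14 in control cells. Deviations of same-numbered arrays did not all correlate above 0.1 (-0.06 to 0.16 between polysomal treatments, -0.22 to 0.56 between cytoplasmic ones). Between the fractions all 6 were positive, at 0.04, 0.23 and 0.02 in 4EGI-1 cells and 0.02, 0.14 and 0.13 in control cells. The design text has both fractions from the same samples but does not say that equal numbers mark the same sample, so whether the numbers pair the arrays is not settled. Fitted alone with the block, the 6 polysomal arrays gave 22 calls and the 6 cytoplasmic arrays 16. Over all genes these fits gave 5034 and 2365 calls, against 3316 and 2352 in the main fit.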
